A study of Mus musculus with 14 samples.

Results

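The nuclear genes of the respiratory chain were examined in the hippocampus of lupus-prone mice and their controls. The members were chosen by symbol from the gene count table, as protein-coding genes of GENCODE M21 that begin with Ndufa, Ndufb, Ndufc, Ndufs, Ndufv, Sdh, Uqcr, Cox4 to Cox8 or Atp5, leaving out the assembly factors Ndufaf and Sdhaf and the gene Uqcrq. These were 85 of the 55536 Ensembl genes in the table, and the rule itself uses symbols and no measured value. By symbol, 38 belonged to complex I, 4 to complex II, 7 to complex III, 18 to complex IV and 18 to complex V. After genes with fewer than 10 counts over all libraries were set aside, 83 members were tested. The remaining pair, Cox8c, a testis form of a cytochrome oxidase subunit, and a second gene identifier of Atp5o (ENSMUSG00000116933.1), had 0 counts in every library.

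The respiratory chain passes electrons from NADH and succinate through complexes I to IV to oxygen, and complex V uses the resulting proton gradient to make ATP. Complex II is encoded wholly in the nucleus, whereas the other complexes also hold subunits made from mitochondrial DNA, so that the nuclear and mitochondrial parts have to be made in proportion. Neurons depend heavily on this pathway, and several subunits of complex IV exist as pairs of a widely expressed form and a form restricted to muscle, testis or other tissues.

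RNA had been sequenced from perfused hippocampi of mice aged 10 months. The comparison was between 4 genotypes, all on a C57BL/6 background. MRL mice were B6.MRL-Faslpr/J animals, which carry the lpr mutation of Fas and develop lupus. MRL-IRAK4-KD mice carried lpr together with a kinase-dead form of IRAK4, a kinase that relays signals from Toll-like and interleukin-1 receptors. IRAK4-KD mice carried the kinase-dead form without lpr, and C57BL/6 mice carried neither. The MRL and MRL-IRAK4-KD groups had 4 libraries each, and the C57BL/6 and IRAK4-KD groups 3 each. The labels number the libraries of a group but do not tie them to animals, so p-values measure the spread between these libraries.

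Gene counts summed to between 279723718 and 571925600 per library. A pair of libraries stood apart. MRL-IRAK4-KD replicate 4 lay at 113 on the first principal component of log2 CPM, the counts scaled to library size by TMM,, which held 49.4% of the variance, while the other 13 libraries lay between -20.1 and 4.68. The library labelled IRAK4-KD replicate 3 had 0 counts of a Fas transcript of 1481 bases and 514 counts of another of 1625 bases, as in the 8 lpr libraries (0 counts and 268 to 964 counts), whereas IRAK4-KD replicates 1 and 2 had 360 to 386 counts of the former and at most 7 of the latter. Its summed level of 6 markers of striatum and thalamus was 242 CPM, against 70.9 to 158 CPM in the other libraries. The 6 markers of hippocampal neurons (Prox1, Wfs1, Neurod2, Zbtb20, Spink8 and C1ql2) summed to at least 626 CPM in every library. Irak4 itself, whose kinase-dead allele is still transcribed, was at 1.54 to 2.72 CPM throughout, so that its level checks no label. Many results that rest on either library are also given without it.

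For 67 of the 84 distinct member symbols, the RefSeq promoter table of build GRCm38.p6 held a window from 250 bases before to 50 bases after a transcription start. Those without one included Atp5a1, Atp5f1, Atp5mpl, Atp5s, Cox4i1, Cox4i2, Cox6a2, Cox6c, Cox8c, Ndufa2, Ndufa4l2, Ndufb9, Ndufs1, Sdhc, Uqcrb and Uqcrc2. The 4 motifs of factors known for mitochondrial genes were searched on both strands, overlapping matches included, and a gene counted once if any of its windows held the letters. GCATGCG, the core of the site of NRF1, lay in 11 of the 67 members (16.4%) and in 4.01% of all 27025 genes of the table. CCGGAAG, a site of ETS factors such as GABP (NRF2), lay in 16 members (23.9%) and in 9.93% of all genes. AAGATGG, a site of YY1, lay in 10 members (14.9%) and in 7.28% of all genes. AAGGTCA, a site of estrogen-related receptors, lay in 8 members (11.9%) and in 5.38% of all genes. A match describes letters in the window, not binding.

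The windows of 5 members are shown, for representatives of complexes I and II and for the 3 complex IV genes to which the comparisons below return, each read 5′ to 3′ on the gene's strand with the motif letters in capitals. The window of Ndufb8 (chr19:44555393-44555692, minus strand) held the YY1 letters 289 bases into the window, that of Sdhb (chr4:140961021-140961320, plus strand) held the NRF1 and the ETS letters, that of Cox6a1 (chr5:115348909-115349208, minus strand) held the NRF1 letters on both strands, overlapping by all but 1 base, and the ETS letters, and that of Cox8a (chr19:7217567-7217866, minus strand) held the ETS letters in 2 places. The window of Cox5b (chr1:36691237-36691536, plus strand) held none of the 4 motifs in these exact letters.
Ndufb8: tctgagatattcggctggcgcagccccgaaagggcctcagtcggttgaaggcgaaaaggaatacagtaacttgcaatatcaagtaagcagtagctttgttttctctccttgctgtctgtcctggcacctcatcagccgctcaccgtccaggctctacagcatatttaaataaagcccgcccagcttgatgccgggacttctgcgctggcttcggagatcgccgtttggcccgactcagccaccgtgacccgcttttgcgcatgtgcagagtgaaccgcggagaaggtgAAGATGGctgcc
Sdhb: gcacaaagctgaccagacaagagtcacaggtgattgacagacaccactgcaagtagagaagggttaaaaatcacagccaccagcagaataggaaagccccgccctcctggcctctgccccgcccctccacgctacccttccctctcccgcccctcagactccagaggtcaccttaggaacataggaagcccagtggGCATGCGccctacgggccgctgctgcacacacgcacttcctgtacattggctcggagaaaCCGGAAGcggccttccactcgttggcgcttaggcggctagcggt
Cox5b: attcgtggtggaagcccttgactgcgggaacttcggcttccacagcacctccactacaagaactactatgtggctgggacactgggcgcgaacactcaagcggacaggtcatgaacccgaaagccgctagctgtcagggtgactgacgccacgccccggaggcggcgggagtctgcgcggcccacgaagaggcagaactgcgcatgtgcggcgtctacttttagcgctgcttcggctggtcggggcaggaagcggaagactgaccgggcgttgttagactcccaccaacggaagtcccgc
Cox6a1: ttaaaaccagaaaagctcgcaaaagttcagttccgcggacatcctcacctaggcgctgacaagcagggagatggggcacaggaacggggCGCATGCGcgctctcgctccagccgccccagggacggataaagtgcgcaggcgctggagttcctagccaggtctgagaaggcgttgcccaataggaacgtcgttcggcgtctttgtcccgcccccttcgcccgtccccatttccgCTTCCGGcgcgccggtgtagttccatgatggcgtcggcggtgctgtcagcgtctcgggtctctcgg
Cox8a: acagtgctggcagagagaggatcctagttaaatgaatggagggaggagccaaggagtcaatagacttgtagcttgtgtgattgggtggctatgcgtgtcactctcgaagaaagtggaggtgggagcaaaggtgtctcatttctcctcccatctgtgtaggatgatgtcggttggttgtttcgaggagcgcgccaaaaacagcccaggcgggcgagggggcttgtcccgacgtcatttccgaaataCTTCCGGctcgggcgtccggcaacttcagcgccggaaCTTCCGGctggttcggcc

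The levels of the members were compared per length, in TPM, which scales counts by transcript length and library total, computed from the transcript counts, over the 13 libraries other than MRL-IRAK4-KD replicate 4. Together the members made up 17830 TPM, of which complex I held 5643, complex V 5104, complex IV 4939, complex III 1619 and complex II 525 TPM. The highest single member was Cox4i1, the widely expressed form of the largest nuclear subunit of cytochrome oxidase, at 909 ± 68.0 TPM (SD, n = 13). It was followed by Atp5b, the catalytic beta subunit of ATP synthase, at 862 ± 60.8 TPM. Their ranges over libraries overlap, as the plot of levels per length shows.

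**Figure D1:**
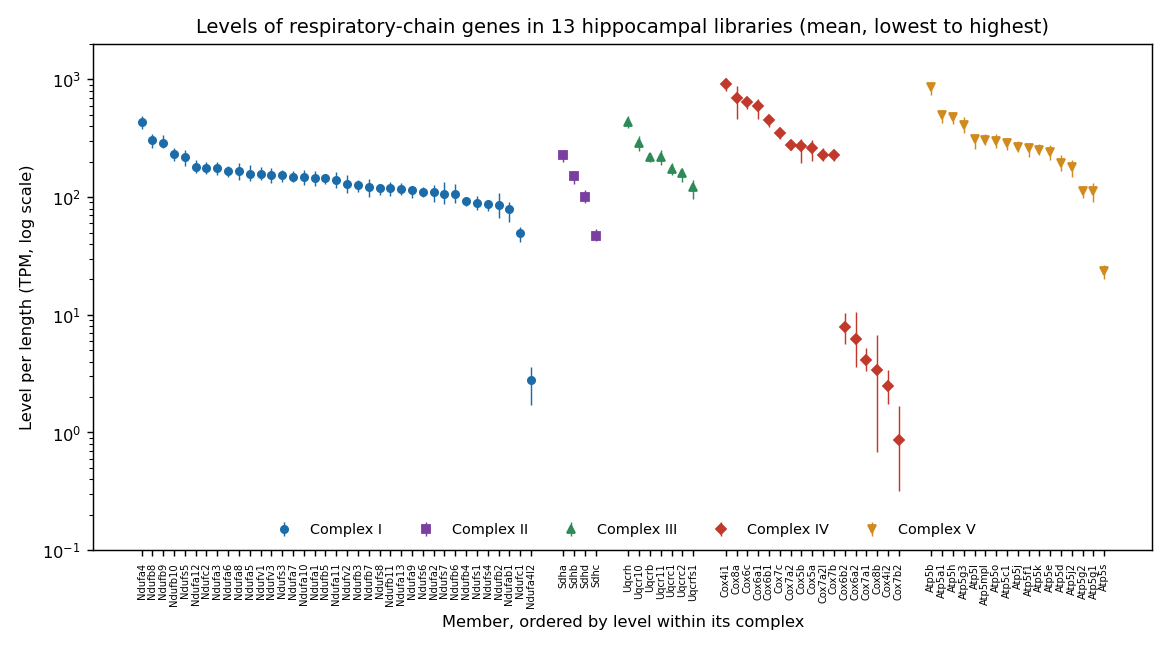
Level per length of tested members in TPM (log axis), as the mean of 13 libraries with a line from the lowest to the highest library, ordered within complexes I to V. Most members lie near the median of 166 TPM, while 6 forms of complex IV subunits and Ndufa4l2 lie below 10 TPM.

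Within complex I, the highest members were Ndufa4 at 432 ± 35.4 TPM, whose protein is now placed in complex IV, and Ndufb8 at 307 ± 26.0 TPM, an accessory subunit of the membrane arm. Ndufs1, the largest iron-sulfur subunit of the core, was lower, at 89.8 ± 6.44 TPM. Ndufc1 (49.4 ± 4.46 TPM) and Ndufa4l2, a relative of Ndufa4 induced by low oxygen (2.82 ± 0.576 TPM), were the lowest.

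The 4 genes of complex II, which also belongs to the citric acid cycle, were ordered Sdha (228 ± 12.4 TPM), Sdhb (150 ± 10.9 TPM), Sdhd (101 ± 8.53 TPM) and Sdhc (46.5 ± 3.04 TPM). Sdha carries the flavin, Sdhb the iron-sulfur clusters, and Sdhc and Sdhd anchor the complex in the membrane. In complex III, the small subunits Uqcrh (435 ± 31.1 TPM) and Uqcr10 (286 ± 29.5 TPM) were highest, and the Rieske iron-sulfur protein Uqcrfs1 (122 ± 12.5 TPM) and the core protein Uqcrc2 (160 ± 13.8 TPM) were lowest. Uqcrc1, the other core protein, was at 174 ± 12.9 TPM. In complex V, Atp5a1, the alpha subunit, followed Atp5b at 501 ± 36.3 TPM. The 3 genes that encode the same mature c subunit of the rotor differed, with Atp5g3 at 407 ± 38.6, Atp5g2 at 112 ± 8.11 and Atp5g1 at 112 ± 13.3 TPM. Atp5s, a coupling factor, was the lowest at 23.4 ± 1.44 TPM.

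Complex IV held the widest range. Cox6c was at 639 ± 40.8, Cox5b at 273 ± 32.3 and Cox5a at 264 ± 26.6 TPM. The common forms Cox8a (701 ± 106 TPM), Cox6a1 (591 ± 59.1 TPM), Cox6b1 (453 ± 34.1 TPM) and Cox7a2 (275 ± 17.9 TPM) stood far above their restricted counterparts. The heart and muscle forms Cox6a2, Cox7a1 and Cox8b were at 6.27 ± 2.09, 4.14 ± 0.622 and 3.37 ± 2.05 TPM, and Cox4i2, the form known from lung and oxygen-sensing cells, at 2.47 ± 0.491 TPM. Cox6b2 (7.84 ± 1.56 TPM) and Cox7b2 (0.871 ± 0.340 TPM) are known mainly from testis. In bulk tissue, fewer cells of a type and less RNA per cell cannot be told apart.

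Counting of some members is uncertain because their main transcript shares stretches of 100 bases with the transcripts of other genes. This held for 20 of the 83 members. The share of windows found elsewhere was 86.4% for Atp5g2, 61.3% for Atp5l, 44.4% for Cox7c and 38.3% for Ndufa12, and 8.09% for Cox5b and 0 for Cox8a.

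Members varied little among the 13 libraries. The SD of log2 CPM was below 0.2 for 74 of the 83 members, with a median of 0.12 over the 79 members above a mean of 1 CPM and of 0.15 over all 16104 genes above that level. When each member was centred on its mean over the 14 libraries and the median over members was taken as a score, the scores of the 13 libraries lay between -0.29 in IRAK4-KD replicate 3 and 0.11 in MRL-IRAK4-KD replicate 1 on the log2 scale. C57BL/6 replicate 1 was second lowest at -0.26, so that low values occurred both with and without the kinase-dead allele. The 4 MRL libraries lay between -0.16 and -0.058, inside the range of the C57BL/6 libraries (-0.26 to 0.027).

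MRL-IRAK4-KD replicate 4 departed from this pattern with a score of 1.06. Its members summed to 32074 TPM, against 16004 to 19401 TPM in the other 13 libraries, and 73 of the 83 members had their highest CPM of all 14 libraries there. The complexes did not move alike, as the plot of scores by library shows. Scores in this library were 0.99 for complex I, 1.01 for complex III, 1.20 for complex IV and 1.15 for complex V but 0.12 for complex II, which lay inside the range of the other libraries (-0.19 to 0.15). Complex II has only 4 genes, and against the mean of the other 13 libraries they split. Sdhb was higher by 0.85 and Sdhc by 0.32 in log2 CPM, while Sdha (-0.064) and Sdhd (-0.12) were lower. Its transcripts were also the longest, with a median of 2044 bases against 549 to 833 bases in the other complexes.

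**Figure D2:**
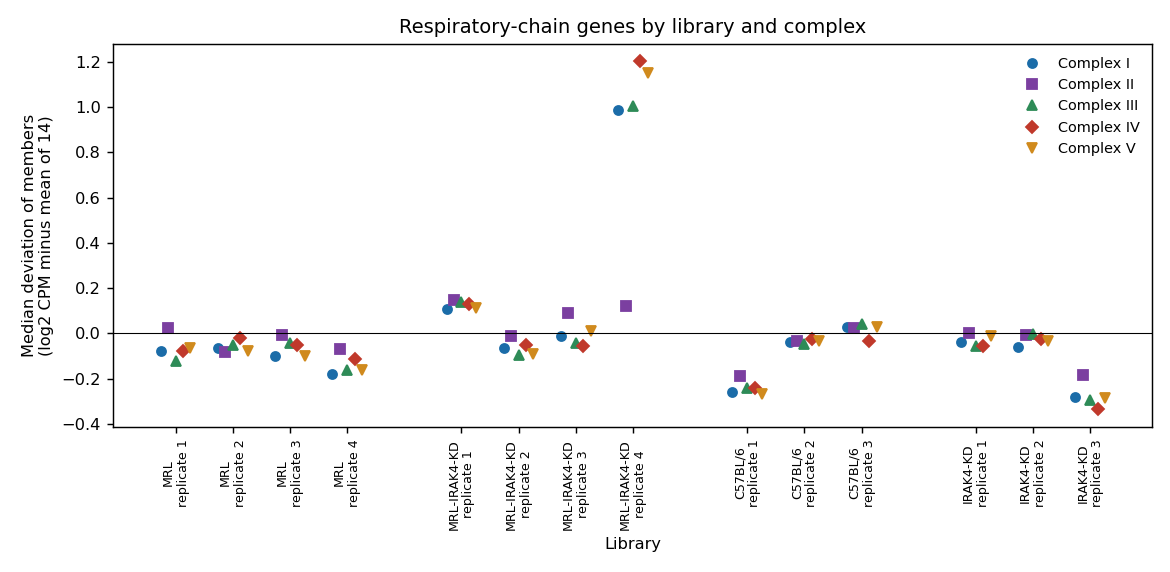
Score of each complex (median over its members of log2 CPM minus the member's mean over 14 libraries) for every library, grouped by genotype. Complexes I, III, IV and V lie between 0.99 and 1.20 in MRL-IRAK4-KD replicate 4, while the remaining libraries lie near 0, the lowest being IRAK4-KD replicate 3.

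Single members differed widely in that library. Relative to the mean of the other 13, Cox8b was higher by 3.19, Cox6b2 by 2.41 and Ndufs6, a zinc-binding subunit, by 1.81 in log2 CPM. In all, 7 members were at or below that mean, namely Cox7c (-0.34), Ndufs1 (-0.30), Atp5s (-0.25), Uqcrfs1 (-0.13), Sdhd (-0.12), Uqcrc2 (-0.11) and Sdha (-0.064). The beta and alpha subunits of ATP synthase stayed close to the other libraries, with Atp5b higher by 0.19 and Atp5a1 by 0.16 in log2 CPM, whereas 47 members were higher by more than 1.

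Short transcripts of all kinds were high in the same library. Among all 16104 genes above 1 CPM, the median deviation was 0.87 for transcripts under 800 bases, 0.56 for 800 to 1500 bases, 0.033 for 1500 to 3000 bases and -0.43 for longer ones. The members in those classes numbered 41, 26, 11 and 1, and the median of the first class was 1.25 and of the third 0.19, with 0.32 for the single longest member. Of these 79 members, 51.9% were under 800 bases, against 6.05% of all genes. Among the other 13 libraries, the score of all genes under 800 bases was lowest in IRAK4-KD replicate 3, at -0.25. It was highest in MRL-IRAK4-KD replicate 1, at 0.070. The members' scores had their lowest and highest of the 13 in the same libraries, and the part of length in this was not tested.

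The deviation also went with base composition. Members over 55% GC had a median of 1.51 and members under 45% GC a median of 0.88, while all genes in these classes had medians of 0.32 and -0.42. Across the 79 members, Spearman's rho of the deviation was -0.53 with transcript length and 0.46 with GC content, and across all genes it was -0.44 and 0.30, values given as a description since genes of 1 library share its preparation. In each length and GC class the median of the members was above that of all genes, and Cox7c, with a transcript of 537 bases, went the other way.

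**Figure D3:**
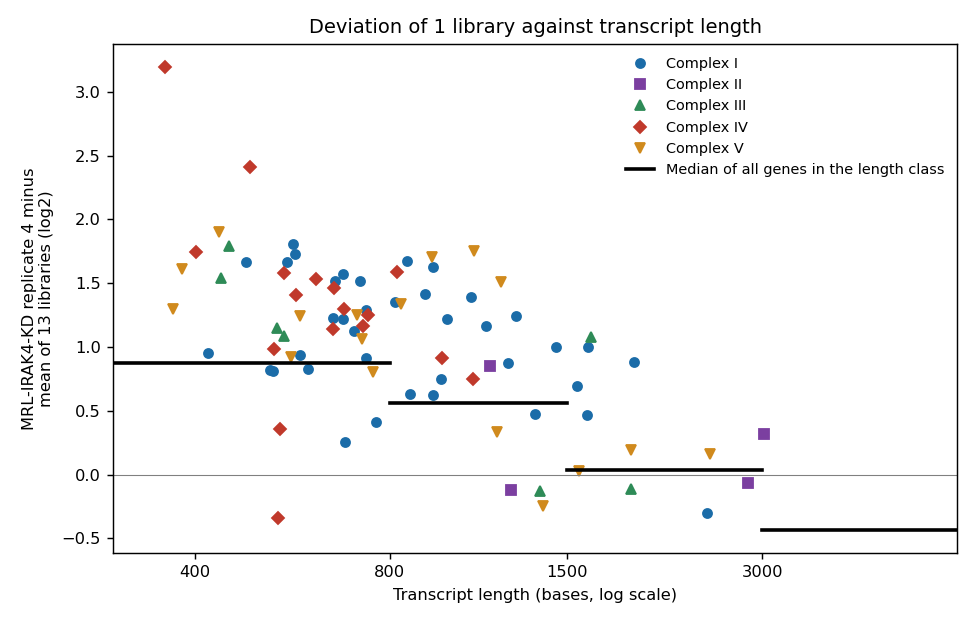
Log2 CPM of each member in MRL-IRAK4-KD replicate 4 minus its mean over the other 13 libraries, against transcript length in bases (log axis), with black lines for the median of all genes in 4 length classes. Most members under 1500 bases lie above the line of all genes. Longer members are spread out, with Sdha near 0 and Ndufs1 below 0. Ndufv2 and Uqcrc1, also over 1500 bases, lie about as high as many shorter members.

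Other measures set this library apart. Its RNA input on the sequencing core's sheet was 27.4, against 39.6 to 43.7 for the other libraries in the sheet's unit for the Qubit reading, its library concentration by qPCR was 13.5 nM against 23.5 to 27.6 nM, and its gene counts came to 1.40 per read on the sheet, against 1.80 to 2.08. The 6 choroid plexus markers summed to 7762 CPM there and to 64.7 to 1829 CPM elsewhere, and the 6 hippocampal neuron markers to 2142 CPM against 626 to 1252 CPM. Scores of cytosolic ribosomal proteins (0.94) and mitochondrial ribosomal proteins (0.69) were high, assembly factors were at 0.25, and genes of the citric acid cycle (-0.27), the subunits encoded by mitochondrial DNA (-0.21) and astrocyte markers (-0.60) were low. The part of any of these in the members' levels was not tested.

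The first comparison asked whether the kinase-dead allele altered the chain on the lpr background. By edgeR's quasi-likelihood test over all libraries, 0 members passed the adjusted p threshold of 0.05, which 0.0972% of all 38070 genes passed. Below an unadjusted p of 0.05, 42 members were lower in MRL mice and 0 higher, where 6.23% of all genes were lower. The median log2 fold change of the members was -0.41, beside 0.0023 for all genes. By complex the medians were -0.41, -0.10, -0.40, -0.50 and -0.43 for complexes I to V. With DESeq2 and with limma-voom, too, 0 members passed the adjusted threshold.

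Without MRL-IRAK4-KD replicate 4, the median over members was -0.10 and the 5 complexes lay between -0.11 and -0.086. Then 6 members were lower and 1 higher, taking unadjusted p below 0.05, where 3.32% of all genes were lower. The intervals narrowed, and the 95% interval of 76 of the 83 members lay within 0.5 on the log2 scale on either side of 0, compared with 15 when all libraries were used. Without the library the fold change was nearer to 0 for 72 members and farther from it for 11, among them Uqcrfs1 (-0.16 to -0.23) and Cox7c (-0.038 to -0.13), as the plot of fold changes shows.

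**Figure D4:**
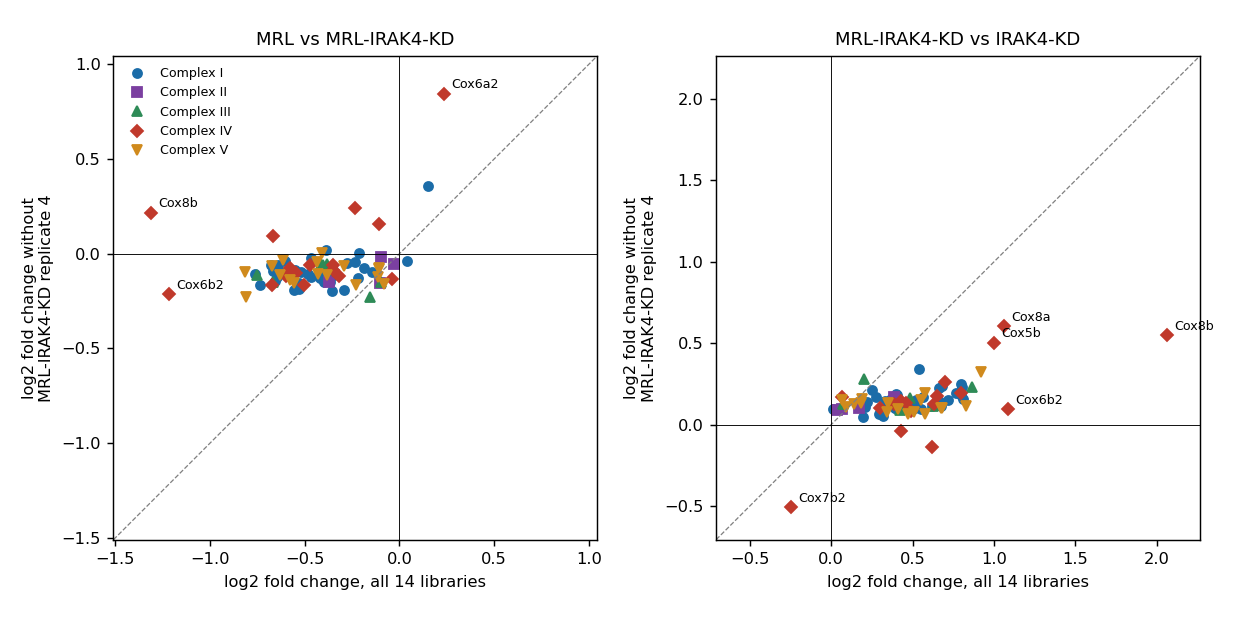
Log2 fold change of each of 83 members over all 14 libraries (horizontal) and without MRL-IRAK4-KD replicate 4 (vertical), for MRL against MRL-IRAK4-KD (left) and MRL-IRAK4-KD against IRAK4-KD (right), with the line of equal values dashed. Most members lie nearer to 0 on the vertical axis than on the horizontal one. On the left, Cox6a2 lies farthest from 0 on the vertical axis, and Cox8b and Cox6b2 on the horizontal one. Labels on the right mark Cox5b, Cox8a, Cox6b2, Cox8b and Cox7b2.

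The 5 members with the smallest p in this comparison were Atp5j2, Ndufab1, Ndufa8, Ndufc1 and Cox6b2. Atp5j2, the f subunit in the membrane part of ATP synthase, was at 72.7, 80.8, 75.0 and 70.5 CPM in MRL and at 93.4, 79.8, 90.7 and 261 CPM in MRL-IRAK4-KD libraries. The groups overlapped, since MRL replicate 2 lay above MRL-IRAK4-KD replicate 2. The log2 fold change was -0.81 (SE 0.30, edgeR adjusted p = 0.437) and -0.23 (SE 0.094, adjusted p = 0.537) without replicate 4. Ndufab1, the mitochondrial acyl carrier protein, was at 49.1, 51.5, 46.9 and 42.7 CPM in MRL and at 57.2, 52.3, 54.2 and 69.5 CPM in MRL-IRAK4-KD libraries. All MRL values were below all MRL-IRAK4-KD values, and the log2 fold change was -0.29 (SE 0.11, edgeR adjusted p = 0.437) with and -0.19 (SE 0.082) without replicate 4.

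Ndufa8 and Ndufc1, both accessory subunits, had log2 fold changes of -0.35 and -0.53, which became -0.20 and -0.19. Cox6b2 had -1.22 (SE 0.48), which became -0.21 (SE 0.22), since its 9.98 CPM in replicate 4 stood against 1.49 to 2.61 CPM in the rest of that group. Without overlap between the groups, 14 members were lower in MRL libraries, where the same held for 2.14% of all genes. They were Cox5a, Cox6b1, Cox7a2l, Uqcr10 and 10 genes of complex I (Ndufa3, Ndufa4, Ndufa8, Ndufab1, Ndufb6, Ndufb8, Ndufb9, Ndufc1, Ndufs4 and Ndufv2). The same 14 did not overlap without MRL-IRAK4-KD replicate 4, where 3.58% of all genes were lower in this way. Leaving a library out cannot undo a separation. In exact two-sided permutation tests of the 20 pairs of member and comparison named for small p, Ndufab1, Ndufa8 and Ndufc1 reached 0.0286, the smallest value that 4 against 4 libraries allow, and 0.114 after adjustment over the 20 tests. The pairs were picked by their edgeR p in these same data, and the adjustment does not cover that choice.

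Of the 83 members, 3 had a positive fold change over all libraries, namely Cox6a2 and Ndufa4l2, which were also positive without replicate 4, and Ndufs1. Without that library, Cox6a2 and Ndufa4l2 were higher in MRL libraries without overlap, where 4.41% of all genes were. Ndufa4l2 had 0.15 (SE 0.23) with and 0.36 (SE 0.20) without replicate 4. Cox6a2 is the heart and muscle form of subunit VIa. It was at 2.33, 3.46, 3.47 and 2.26 CPM in MRL and at 1.60, 1.58, 1.65 and 4.94 CPM in MRL-IRAK4-KD libraries. Apart from replicate 4, every MRL-IRAK4-KD library was below every MRL library. Its log2 fold change was 0.24 (SE 0.35, edgeR adjusted p = 0.801) with replicate 4 and 0.85 (SE 0.21, 95% interval 0.40 to 1.29, adjusted p = 0.249) without it. DESeq2 without that library gave an adjusted p of 0.0106, and the share of all genes called by that fit is not given here. The 4 markers of smooth and striated muscle (Myh11, Acta2, Ckm and Actn2) summed to 19.1 to 31.8 CPM in MRL and to 23.0 to 27.8 CPM in MRL-IRAK4-KD libraries, ranges that overlap. The 6 markers of endothelium and mural cells (Cldn5, Pecam1, Flt1, Rgs5, Pdgfrb and Kcnj8) summed to 188 to 250 CPM in MRL, 110 to 173 CPM in MRL-IRAK4-KD, 137 to 158 CPM in C57BL/6 and 106 to 120 CPM in IRAK4-KD libraries, so that MRL libraries were highest without overlap. All 6 had a positive fold change between MRL and MRL-IRAK4-KD, 3 of them with an unadjusted p below 0.05, where 5.14% of all genes were higher, and 0 passed the adjusted threshold. Their part in the level of Cox6a2 was not tested. Its common counterpart Cox6a1 was at -0.10 (SE 0.11) without replicate 4.

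The second comparison asked what the lpr background did alone. Between MRL and C57BL/6 mice, 0 members passed the adjusted threshold by edgeR, DESeq2 or limma-voom, where 0% of all genes passed by edgeR, and 0 members were below an unadjusted p of 0.05, where 5.55% of all genes were in either direction. The median of the members was -0.0082 and that of all genes -0.0046. Without MRL-IRAK4-KD replicate 4, which enters this contrast through the shared estimate of spread and the scaling, 2 members were below an unadjusted p of 0.05, Cox6a2 higher and Cox7b2 lower, where 10.1% of all genes were in either direction, and the intervals of 77 members lay within 0.5 of 0.

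Cox7b2 came closest, at 0.211, 0.152, 0.230 and 0.153 CPM in MRL and at 0.260, 0.435 and 0.268 CPM in C57BL/6 libraries. The groups did not overlap, but the level was low and the log2 fold change of -0.78 had an SE of 0.40 (edgeR adjusted p = 0.912). Cox8a, a subunit near the outside of cytochrome oxidase, was at 192, 225, 196 and 195 CPM in MRL and at 158, 177 and 187 CPM in C57BL/6 libraries, again without overlap, with a log2 fold change of 0.22 (SE 0.28). Only Cox8a was higher and only Cox7b2 lower without overlap, where 4.47% of all genes were higher and 5.16% lower in this way. Ndufa4l2 had 0.36 (SE 0.25), Cox6a2 0.48 (SE 0.38) and Ndufs1 0.090 (SE 0.12). Sdha was at -0.0023 (SE 0.085).

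The third comparison took the kinase-dead allele without lpr. Between IRAK4-KD and C57BL/6 mice, 0 members passed the adjusted threshold by edgeR, DESeq2 or limma-voom, where 0.147% of all genes did by edgeR, and 0 members were below an unadjusted p of 0.05, where 3.8% of all genes were in either direction. The median of the members was -0.034. It was 0.037 without IRAK4-KD replicate 3, so that its direction rested on that library. The interval of 32 members lay within 0.5 of 0 over all libraries, and of 74 members without MRL-IRAK4-KD replicate 4. Without that library 3 members, Cox5b, Cox6a2 and Cox8a, were lower at an unadjusted p below 0.05, where 6.96% of all genes were in either direction.

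Cox5b, the zinc-binding subunit Vb of cytochrome oxidase, was at 97.0, 88.5 and 70.9 CPM in IRAK4-KD and at 102, 114 and 112 CPM in C57BL/6 libraries. All 3 IRAK4-KD libraries were below all C57BL/6 libraries, with IRAK4-KD replicate 3 the lowest. Such a separation downwards held for 2 members, Cox5b and Cox7b2, and for 5.52% of all genes. The log2 fold change was -0.36 (SE 0.31, edgeR adjusted p = 1). Without MRL-IRAK4-KD replicate 4 the value was the same and the SE 0.095 (adjusted p = 0.262), and without IRAK4-KD replicate 3 as well it was -0.23 (SE 0.081, adjusted p = 0.693). Cox6a2 had -0.55 (SE 0.41), Ndufa4l2 -0.33 (SE 0.27), Cox7b2 -0.43 (SE 0.43) and Ndufc2 -0.12 (SE 0.11). Without both libraries that stood apart they were at -0.39 (SE 0.23), -0.15 (SE 0.22), -0.43 (SE 0.45) and -0.041 (SE 0.097). Of these, Cox7b2 alone did not overlap between the groups. With 3 libraries against 3, an exact permutation test cannot go below 0.1.

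The fourth comparison took the lpr background in the presence of the kinase-dead allele. Between MRL-IRAK4-KD and IRAK4-KD mice, 0 members passed the adjusted threshold by edgeR, where 0.0735% of all genes did. At unadjusted p below 0.05, 30 members were above 0 and 0 below, where 5.18% of all genes were higher. The median of the members was 0.46 and that of all genes 0. Both this comparison and the first rest on the same MRL-IRAK4-KD libraries. Without MRL-IRAK4-KD replicate 4, 10 members were higher, where 4.19% of all genes were, and the median was 0.13. With the library labelled IRAK4-KD replicate 3 left out as well, 2 members were higher, where 3.1% of all genes were, and the median was 0.063. Those 2 were Cox5b and Cox8a.

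Cox8a was at 244, 210, 198 and 545 CPM in MRL-IRAK4-KD libraries and at 171, 147 and 112 CPM in IRAK4-KD libraries. Each MRL-IRAK4-KD library was above each IRAK4-KD library. The log2 fold change was 1.06 (SE 0.29, edgeR adjusted p = 0.418), 0.60 (SE 0.13, 95% interval 0.33 to 0.88, adjusted p = 0.0925) without MRL-IRAK4-KD replicate 4, and 0.45 (SE 0.11, adjusted p = 0.307) without both libraries that stood apart. DESeq2 gave an adjusted p of 0.0431 over all libraries, and limma-voom with quality weights 0.0404. The shares of all genes called by these 2 tools are not given here.

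Cox5b was at 130, 117, 117 and 321 CPM in MRL-IRAK4-KD libraries and at 97.0, 88.5 and 70.9 CPM in IRAK4-KD libraries. These groups did not overlap either, and the 3 IRAK4-KD libraries were the lowest 3 of all 14 for this gene. The log2 fold change was 1.00 (SE 0.30, edgeR adjusted p = 0.480), 0.50 (SE 0.095, 95% interval 0.30 to 0.71, adjusted p = 0.0586) without MRL-IRAK4-KD replicate 4, and 0.38 (SE 0.082, adjusted p = 0.174) without both. By limma-voom over all libraries the adjusted p was 0.0434. The other members with small p were Atp5d, the delta subunit of the rotor (0.92, SE 0.34), and the complex I subunits Ndufb2 (0.80, SE 0.31) and Ndufb11 (0.68, SE 0.27), which came to 0.32, 0.25 and 0.24 without MRL-IRAK4-KD replicate 4. In the exact permutation tests, Cox8a, Cox5b, Ndufb2 and Ndufb11 reached 0.0571, the smallest value that 4 against 3 libraries allow, and Atp5d 0.114. In this comparison 10 members did not overlap and were higher in MRL-IRAK4-KD, where 4.31% of all genes were, among them Atp5c1, Cox5b, Cox7a2l, Cox8a, Ndufa4, Ndufb11, Ndufb2, Ndufc2 and Ndufs8. Without MRL-IRAK4-KD replicate 4 there were 15 such members, where 7.53% of all genes were. Without both libraries there were also 15, where 11.6% of all genes were.

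**Figure D5:**
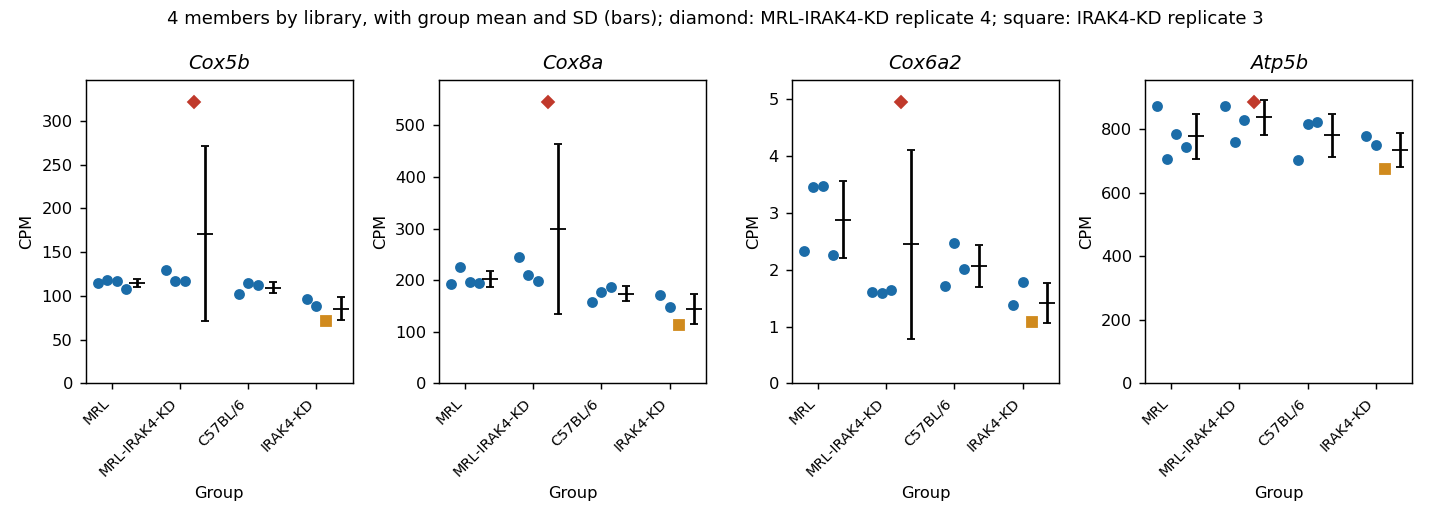
CPM of Cox5b, Cox8a, Cox6a2 and Atp5b in each library by group, with group mean and SD (n = 4, 4, 3 and 3), axes from 0. MRL-IRAK4-KD replicate 4 (diamond) is highest for all 4 genes, and the IRAK4-KD libraries, replicate 3 as a square, are the lowest for Cox5b.

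Subunits shared by all tissues differed in how far they depended on MRL-IRAK4-KD replicate 4. Atp5b was at 707 to 874 CPM in MRL, at 761 to 885 CPM in MRL-IRAK4-KD, at 703 to 824 CPM in C57BL/6 and at 676 to 780 CPM in IRAK4-KD libraries, ranges that overlap. Sdha was at 287 to 336 CPM in all 14 libraries, and its log2 fold changes over the 4 comparisons lay between -0.038 and 0.065. Cox4i1 was at 766 CPM in MRL-IRAK4-KD replicate 4 and at 271 to 360 CPM elsewhere, and its log2 fold change between MRL and MRL-IRAK4-KD went from -0.47 (SE 0.23) to -0.061 (SE 0.091) without that library.

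The difference between the effects of the kinase-dead allele on the lpr and the C57BL/6 background was tested as an interaction. By edgeR, DESeq2 and limma-voom 0 members passed the adjusted threshold, where 0.00263% of all genes did by edgeR, and 1 member, Cox5b, was below an unadjusted p of 0.05, where 4.17% of all genes were in either direction. Its interaction was -0.94 (SE 0.41, edgeR adjusted p = 0.914) and -0.43 (SE 0.13) without MRL-IRAK4-KD replicate 4, counted as MRL minus MRL-IRAK4-KD less C57BL/6 minus IRAK4-KD. Cox8a had -0.85 (SE 0.40), Ndufa10 -0.49 (SE 0.26), Ndufa12 -0.77 (SE 0.41) and Ndufa4 -0.43 (SE 0.23). Without MRL-IRAK4-KD replicate 4 these were -0.38 (SE 0.17), -0.22 (SE 0.12), -0.25 (SE 0.11) and -0.21 (SE 0.13), and 3 members (Cox5b, Cox8a and Ndufa12) were below an unadjusted p of 0.05, where 4.8% of all genes were in either direction. The library labelled IRAK4-KD replicate 3 counts here as free of lpr, against its Fas transcripts. With each library, including this one, left out in turn, the interaction ranged from -1.05 to -0.43 for Cox5b and from -0.99 to -0.38 for Cox8a.

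Other genes of the pathway were read in the same fits. The 13 subunits encoded by mitochondrial DNA had medians of 0.22 between MRL and MRL-IRAK4-KD, 0.23 between MRL and C57BL/6, -0.13 between IRAK4-KD and C57BL/6 and 0.13 between MRL-IRAK4-KD and IRAK4-KD, and 0 of them passed the adjusted threshold in any of these. In the first comparison their median and that of the nuclear members lay on opposite sides of 0. There 4 of the 13 had a positive value with an unadjusted p below 0.05, where 5.14% of all genes were higher. Without MRL-IRAK4-KD replicate 4 their median there was 0.17, with 3 positive at that p, where 5.2% of all genes were.

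Of 50 assembly factors tested, 7 had a negative and 0 a positive value with an unadjusted p below 0.05 in the first comparison, with a median of -0.15 that was -0.048 without replicate 4. Beside the counts of this paragraph, 6.23% of all genes were lower and 5.14% higher at that p over all libraries. Without replicate 4 these shares were 3.32% and 5.2%. Cytochrome c carries electrons from complex III to complex IV, and Cyc1 is a subunit of complex III that the symbol rule does not take in. Together they had a median of -0.26 over 3 genes, with 0 below that p. The 77 mitochondrial ribosomal proteins had a median of -0.28 with 23 lower, and -0.076 with 4 lower without replicate 4. The 19 genes of the citric acid cycle had a median of -0.00024 with 2 lower. The 19 regulators of mitochondrial biogenesis, among them Ppargc1a, Nrf1, Gabpa, Esrra, Yy1 and Tfam, had a median of 0.11, with 2 higher and 0 lower, and of 0.025, with 4 higher and 0 lower, without replicate 4. The score of the regulators in that library was -0.12, against -0.047 to 0.085 in the other 13. In none of these lists did a gene pass the adjusted threshold over all libraries in the 4 comparisons.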

How the data were processed

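Per the labels, RNA from the hippocampus was extracted with a miRNeasy kit and libraries were made from mRNA with a KAPA kit, whereas the study's methods name a SMART-seq kit. The submitters' processing notes name mm10, HISAT2 2.1.0, SAMtools 1.9, StringTie 2.1.0 and DESeq2 1.30.1. The deposited gene and transcript tables hold counts per gene and transcript, not normalized, which StringTie derives from coverage. A sheet from the sequencing core as deposited gives reads, RNA input and library concentration. At most 0.188% of counts lay outside Ensembl genes, in 26248 tRNA predictions and 97 spike-ins, and were left out.

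Counts were tested with edgeR 4.0.16 (quasi-likelihood, TMM, 14 libraries, 38070 genes with at least 10 counts, Benjamini-Hochberg over all genes), checked on simulated data. DESeq2 1.42.0, limma 3.58.1, other scalings and filters and leaving out each library were tried. CPM used TMM, log2 values a pseudocount of 0.1. Transcript length and GC were means weighted by counts. Members and lists were chosen with earlier results of these data known. Named members are the 5 smallest p per comparison, fixed representatives, tissue forms, the 2 highest and lowest per complex and those not tested. Other members were named after their values were seen. Atp5if1 is not a symbol of GENCODE M21. The values of 1 member are not reported here by name.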

Additional observations from a re-analysis of the deposited data

Results flagged for a closer look

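In the groups of 4 libraries, the gap of the highest or lowest library to its neighbour was set against the group's range for 5 complexes, all members and 41 named members. Of 94 such groups, 22 exceeded Dixon's 95% critical value, which about 1 in 20 independent groups would exceed by chance. These groups were not independent, since they share the same libraries and the scores are built from members. Some members were also named for small p in comparisons that use MRL-IRAK4-KD replicate 4, so the count was not set against chance. In 20 of the 22 flagged groups that library was the one apart, always as the highest of its group.

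Its scores were 0.99 for complex I, 1.20 for complex IV, 1.15 for complex V and 1.06 for all members. In complex I it held Ndufa12 at 179 CPM, Ndufa4l2 at 1.95 CPM, Ndufb11 at 137 CPM, Ndufb2 at 129 CPM, Ndufb8 at 232 CPM and Ndufc1 at 60.1 CPM. In complex IV it held Cox4i1 at 766 CPM, Cox5a at 182 CPM, Cox5b at 321 CPM, Cox6a1 at 429 CPM, Cox6a2 at 4.94 CPM, Cox6b1 at 386 CPM and Cox7a2 at 238 CPM. In complex V it held Atp5d at 339 CPM, Atp5g1 at 186 CPM and Atp5j2 at 261 CPM. The remaining flags fell in MRL mice, for Cox6b2 at 2.06 CPM in replicate 3 and Cox8a at 225 CPM in replicate 2.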

How the results depend on the processing

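The score of MRL-IRAK4-KD replicate 4 was 1.00 with a pseudocount of 1. Between MRL and MRL-IRAK4-KD, the 42 lower members became 12 with limma-voom, 3 with only these groups, 22 with the length trend removed, 26 with the length and GC trends removed, 11 without both libraries that stood apart and 8 with DESeq2 without MRL-IRAK4-KD replicate 4, and ranged from 2 to 63 when each library was left out (14, 14, 8 and 2 without MRL replicates 1 to 4, 6 without MRL-IRAK4-KD replicate 4, and 26 without C57BL/6 replicate 2 or IRAK4-KD replicate 2). The median was -0.12 with limma-voom, -0.20 with the length trend removed, -0.17 with both trends removed, -0.11 without both libraries and -0.11 with DESeq2 without replicate 4, and ranged from -0.50 to -0.10. DESeq2 without replicate 4 called 1 member. By edgeR, 6.23% of all genes were lower at unadjusted p below 0.05 over all libraries, and 3.32% without MRL-IRAK4-KD replicate 4. That share is not given here for the other fits, so their counts cannot be set against all genes.

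Between MRL-IRAK4-KD and IRAK4-KD, the 30 higher members became 15 with library size alone, 12 with limma-voom, 2 with only these groups, 7 and 4 with the trends removed, 2 without both libraries and 10 with DESeq2 without replicate 4, and ranged from 2 to 64 (49, 64, 59 and 10 without MRL-IRAK4-KD replicates 1 to 4, and 15, 11 and 2 without IRAK4-KD replicates 1 to 3). The median was 0.12 with limma-voom, 0.14 and 0.11 with the trends removed, 0.063 without both libraries and 0.13 with DESeq2 without replicate 4, and ranged from 0.13 to 0.56. DESeq2 called 1 member, limma-voom 2, and DESeq2 without replicate 4 called 2. Shares of all genes called are given for edgeR only, so these calls cannot be set against those of all genes. By edgeR, 5.18% of all genes were higher at unadjusted p below 0.05 over all libraries. The share was 4.19% without MRL-IRAK4-KD replicate 4 and 3.1% without both libraries. It is not given here for the other fits, so their counts of higher members cannot be set against all genes. The trend, both-libraries and DESeq2-without-replicate-4 fits were chosen after seeing the data, and the cause was not tested.

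Same-numbered libraries correlated from -0.25 to 0.37, so the numbers did not pair them. A replicate block left 18 lower members between MRL and MRL-IRAK4-KD and 3 higher between MRL-IRAK4-KD and IRAK4-KD, with a median of 0.27 in the latter. The share of all genes in that fit is not given here. In the other comparisons 0 members were called under every alternative run. Leaving out each library moved the median from -0.081 to 0.048 between MRL and C57BL/6 and from -0.11 to 0.037 between IRAK4-KD and C57BL/6.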
